A study of Mus musculus with 4 samples.

Results

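The transcripts of Prdm14, Tet2 and Tet3 were followed in mouse J1 embryonic stem cells on 4 Affymetrix arrays. Prdm14 and Tet2 are genes that the experiment set out to change, and Tet3 is the family member that the design does not name. All probe sets with one of these 3 symbols in the platform annotation were taken. They were 4 of the 28898 probe sets with a single gene symbol, and stood for 3 of 17097 genes. Tet2 had 2 probe sets, and Tet3 and Prdm14 had 1 each. Probe sets were taken by symbol whatever their signals, but the genes were chosen with earlier results of these data known. Tet1 was not analysed here.

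The cells were a J1-derived line, called iP14 in the labels, in which doxycycline induces PRDM14, and they were grown without feeders in medium with serum and LIF. The 4 conditions crossed 2 factors. The scramble array came from control cells without doxycycline, which another label calls wild type, and the scramble array with PRDM14 from control cells with induced PRDM14. The knockdown array came from cells with short hairpin RNAs against Tet1 and Tet2, and the knockdown array with PRDM14 from such cells with induced PRDM14. The number of clones behind a line, the doxycycline dose and the duration were not given in the sources used here. The series was made to ask what TET1 and TET2 contribute to gene regulation by PRDM14. Each condition had 1 array, so no difference has a spread within a condition or a test, and the number of arrays limits the precision. As a technical yardstick, the log2 difference between 2 arrays was compared over probe sets of the same gene. Its pooled SD was 0.21 and 0.16 for the knockdown comparisons without and with PRDM14, and 0.22 and 0.15 for the PRDM14 comparisons in scramble and knockdown cells, over 3322 genes. This covers neither cultures nor arrays. The scramble array stood furthest from the others, with a root mean square distance of 0.281 to the mean of the other 3 over 10519 genes, against 0.199 to 0.258. It enters the knockdown comparison without PRDM14 and the PRDM14 comparison in scramble cells, and the remaining comparisons are free of it. Every array enters 2 of the 4 comparisons, so those that share an array are not independent.

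TET proteins are dioxygenases that need iron and 2-oxoglutarate and oxidise 5-methylcytosine in DNA. The oxidised base can be lost through replication or be cut out by the glycosylase TDG and replaced through base excision repair. TET2 is abundant in mouse embryonic stem cells, where TET3 is scarce, and TET3 acts on the paternal genome in the zygote. PRDM14 is a zinc finger protein with a PR domain, present in naive pluripotent cells and primordial germ cells, that represses de novo methyltransferases and genes of the primed state with the corepressor CBFA2T2 and Polycomb.

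The labelled cell type was checked against its markers. All 8 measured embryonic stem cell markers, among them Pou5f1, Sox2, Nanog and Zfp42, lay above an expression filter of 5.40 on all arrays. This filter is the median of all log2 signals of named probe sets and is not a measure of background. Of 8 fibroblast or feeder markers 7 lay below it on all arrays, as did all 4 blood markers, 4 of 7 primitive endoderm, 3 of 6 trophectoderm and 2 of 4 neural markers. The mean of the fibroblast or feeder markers was between 4.35 and 4.41 on the 4 arrays.

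The promoters of Tet2 and Tet3 are shown because Tet2 read higher on the arrays with PRDM14, while Tet3 stayed within the yardstick in both PRDM14 comparisons. Each is the RefSeq window from 250 bases before to 50 bases after the annotated start in GRCm38.p6, for 2 of the 3 genes. Capitals mark CpG dinucleotides, the sites of DNA methylation on which TET enzymes act. The Tet2 window lies at chr3:133544341-133544640 on the minus strand, and the Tet3 window at chr6:83441629-83441928 on the minus strand.
Tet2: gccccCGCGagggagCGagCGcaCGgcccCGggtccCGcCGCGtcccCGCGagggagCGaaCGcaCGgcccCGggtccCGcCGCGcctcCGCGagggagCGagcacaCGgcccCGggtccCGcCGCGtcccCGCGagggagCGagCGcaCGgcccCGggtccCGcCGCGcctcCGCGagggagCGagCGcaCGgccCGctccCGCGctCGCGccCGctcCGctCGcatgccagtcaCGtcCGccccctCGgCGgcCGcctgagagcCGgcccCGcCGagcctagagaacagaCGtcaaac
Tet3: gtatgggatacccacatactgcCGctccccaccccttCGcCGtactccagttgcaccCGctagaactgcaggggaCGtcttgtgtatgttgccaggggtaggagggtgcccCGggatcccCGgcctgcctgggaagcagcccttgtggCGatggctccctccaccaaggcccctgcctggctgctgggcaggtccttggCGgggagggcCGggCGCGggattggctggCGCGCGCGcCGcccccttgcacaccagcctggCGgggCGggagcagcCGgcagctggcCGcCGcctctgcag
The Tet2 window held 57 CpG and the Tet3 window 22, against a median of 7 in 32851 promoter windows of the same length. Only 0.11% of windows had more CpG than that of Tet2, and 21.5% had more than that of Tet3. The letters GGTCTC, the start of a sequence that PRDM14 is known to bind, were searched on both strands. They occurred in 0 of these 2 windows and in 16.4% of all windows. The arrays measured RNA only, and methylation or binding at these windows was not measured.

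Tet2 was the member that differed most between the arrays. Its brightest probe set, 1455300_PM_at, had a log2 signal of 8.46 on scramble, 7.50 on knockdown, 9.33 on scramble with PRDM14 and 8.15 on knockdown with PRDM14. Both knockdown arrays thus read below both scramble arrays, and within each pair the array with PRDM14 was the higher. The whole span was 1.82 on the log2 scale, or 3.54-fold.

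Without PRDM14, the knockdown left 51.5% of the Tet2 signal, which was 1.94-fold lower (log2 difference −0.96). This lay just under the 2-fold size rule, which called a gene when 2 arrays differed at least 2-fold and the higher reached the filter. Prdm14, below the filter on all arrays, could not be called in any comparison, which left 2 members. Of these 0 were called lower here, against 0.444% of 10351 genes. With PRDM14, Tet2 was 2.26-fold lower on the knockdown array (−1.18), with 44.2% of the signal left. It was the 1 member called of the 2, against 0.475% of 10322 genes called lower. With the mean of both Tet2 probe sets this difference was −0.88 and the call was lost. Only 52 and 29 genes had a more negative difference than the brightest Tet2 probe set in the respective comparisons. The median over all genes was 0.0079 and 0.0029.

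Tet2 was thus lower in the knockdown in both backgrounds. In bulk RNA, less Tet2 RNA per cell and fewer cells with Tet2 RNA cannot be told apart. The knockdown difference with PRDM14 minus that without was −0.22, and −0.02 on the other Tet2 probe set. The yardstick holds for a single difference between 2 arrays and not for this difference of differences, which was not tested. Over both backgrounds 4 genes besides Tet2 were at least as low as Tet2 in each comparison, of 10519 genes that reached the filter. They were Lefty2, an inhibitor of Nodal signalling (−1.31 and −1.18), Manba, a lysosomal mannosidase (−1.15 and −1.55), Pfkp, a glycolytic phosphofructokinase (−1.02 and −1.33), and Trh, the precursor of thyrotropin-releasing hormone (−1.15 and −1.95). These genes were chosen by their values, so this is a description.

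Tet2 also read higher on the arrays with PRDM14, without reaching 2-fold. The difference was 0.86 in scramble cells, or 1.82-fold, and 0.65 in knockdown cells, or 1.57-fold. Of the 2 members 0 were called higher in either comparison, against 1.09% of 10366 genes in scramble cells and 0.359% of 10311 in knockdown cells. In scramble cells 166 genes had a larger positive difference than this brightest Tet2 probe set, and in knockdown cells 118. The knockdown array with PRDM14 therefore stood 0.31 below the scramble array, the narrowest step in the order of the 4 levels, where the yardstick SD was 0.20.

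**Figure D1:**
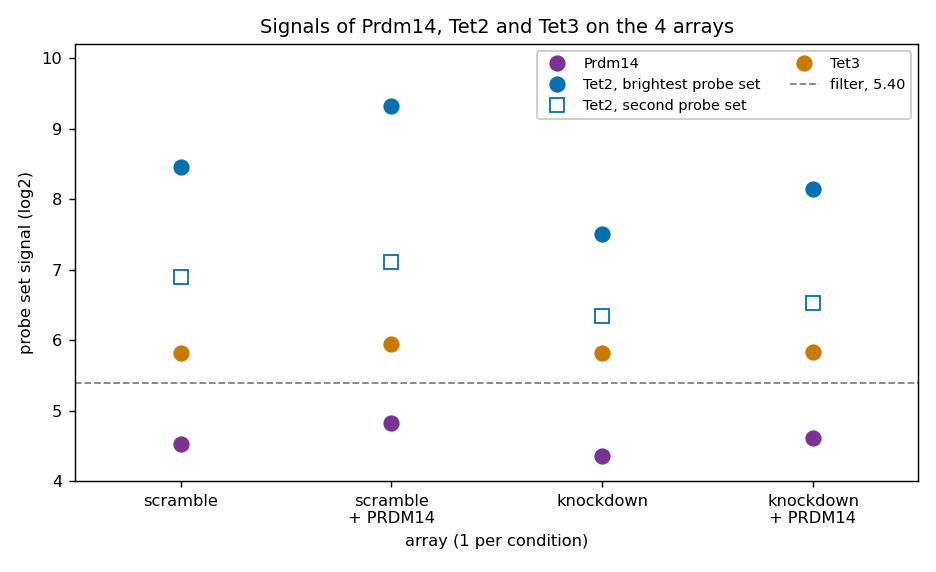
Log2 probe set signal (vertical axis) of Prdm14, Tet3 and both Tet2 probe sets on each of the 4 arrays (horizontal axis), 1 point per array, with the expression filter of 5.40 as a dashed line. The brightest Tet2 probe set runs from 7.50 to 9.33, Tet3 stays between 5.81 and 5.95, and Prdm14 lies below the filter on all arrays.

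The other Tet2 probe set, 1438781_PM_at, had the same order of arrays over a smaller span. Its log2 signals were 6.90 on scramble, 7.11 on scramble with PRDM14, 6.34 on knockdown and 6.53 on knockdown with PRDM14. The knockdown differences were −0.56 and −0.58, which left 68.0% and 66.9% of the signal. None reached 2-fold. The PRDM14 differences were 0.22 in scramble and 0.20 in knockdown cells, beside yardsticks of 0.22 and 0.15. Larger positive differences were found for 1867 and 1098 genes. By this probe set Tet2 was lower in the knockdown, and hardly separate from the yardstick under PRDM14.

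The disagreement between the Tet2 probe sets was large for a gene with 2 of them. Their differences were 0.40 and 0.60 apart in the knockdown comparisons, and 0.65 and 0.45 apart in the PRDM14 comparisons. Among 2363 genes with exactly 2 probe sets above the filter, the median gap in the same comparisons ran from 0.10 to 0.14. A gap at least as large as that of Tet2 occurred in 13.1%, 2.37%, 4.27% and 3.77% of them, in that order. The brightest Tet2 probe set stood above the other by 1.57 on scramble, 2.21 on scramble with PRDM14, 1.16 on knockdown and 1.61 on knockdown with PRDM14. Where on the transcript each probe set lies was not determined, and its part in this gap was not tested.

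Tet3 was nearly level over the 4 arrays. Its probe set, 1439324_PM_at, had log2 signals of 5.81 on scramble, 5.95 on scramble with PRDM14, 5.82 on knockdown and 5.83 on knockdown with PRDM14. The scramble array with PRDM14 was the highest, and the other 3 lay within 0.02 of each other. The whole span was 1.10-fold. All 4 signals were close above the filter, by 0.42 to 0.56, and how the authors' background step treated such signals is not known.

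The knockdown comparisons bear on whether Tet3 RNA was higher where Tet1 and Tet2 were targeted. Tet3 differed by 0.0083 without PRDM14, and 96.3% of genes above the filter had a larger difference in either direction. With PRDM14 it differed by −0.12, and 46.5% of genes had a larger one. The PRDM14 differences were 0.14 in scramble cells and 0.0078 in knockdown cells. None of these 4 differences exceeded the yardstick SD of its comparison. With 1 array per condition and 1 probe set, these values set no interval for a Tet3 difference and do not show that Tet3 was unchanged.

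Prdm14 gave no usable check of the PRDM14 label. Its probe set, 1444390_PM_at, had log2 signals of 4.53 on scramble, 4.83 on scramble with PRDM14, 4.35 on knockdown and 4.61 on knockdown with PRDM14. Both arrays with PRDM14 read above both arrays without it, but the nearest of them, knockdown with PRDM14 and scramble, were 0.08 apart. The signals lay 0.57 to 1.04 below the filter. Whether this probe set reads the introduced transcript is not known.

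The Prdm14 difference was 0.30 in scramble cells, or 1.23-fold, and 0.26 in knockdown cells, or 1.20-fold. Of the genes above the filter 12.6% and 6.58% had a larger positive difference. In the knockdown Prdm14 was lower by 0.18 without PRDM14 and by 0.22 with it, beside yardsticks of 0.21 and 0.16. The PRDM14 differences were larger than their yardsticks of 0.22 and 0.15, which were measured on probe sets above the filter. The arrays are called with PRDM14 by their labels only.

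**Figure D2:**
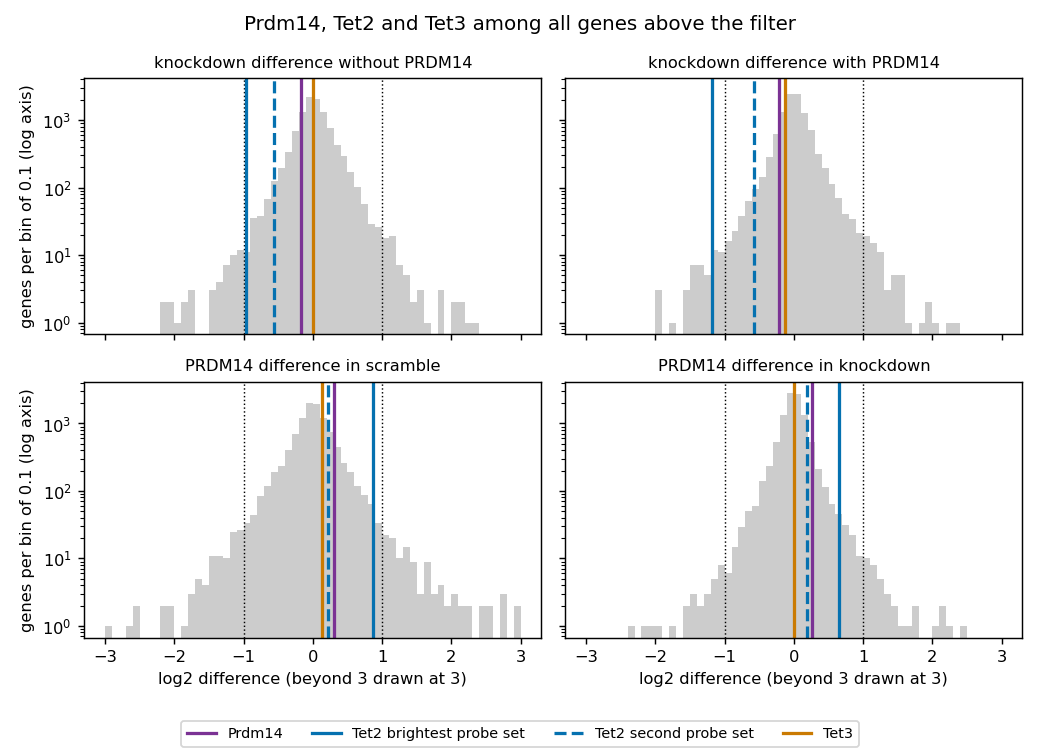
Number of genes (vertical log axis) by log2 difference in bins of 0.1 (horizontal axis) for the 4 comparisons, with the 3 members as coloured lines, the second Tet2 probe set as a dashed line and 2-fold as dotted lines. The brightest Tet2 probe set lies in the left tail of both knockdown comparisons at −0.96 and −1.18 and right of the bulk in both PRDM14 comparisons, while Tet3 lies within 0.14 of 0 in all of them.

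Genes that PRDM14 is known to repress read mostly higher on the arrays labelled with PRDM14. Of 8 such genes 7 were measured above the filter in scramble cells, where 4 were above 0 and 3 below, and the list median was 0.65 against 0.002 over all genes. In knockdown cells 7 of 8 were above 0, with a median of 0.64 against −0.001. This count and median include Fgf5 (0.56), which reached the filter only on the knockdown array with PRDM14 (5.54). Fgf5 did not enter the count in scramble cells, so the sets of genes differ. Dnmt3b, a de novo methyltransferase, was 2.50-fold higher in scramble and 3.44-fold higher in knockdown cells. The POU factor Pou3f1 was higher by 1.15 and 2.14, but by −0.04 and 0.51 on its other probe set. It read below the filter on both arrays without PRDM14. With these signals raised to the filter Pou3f1 was higher by 0.84 and 2.07, and its call in scramble cells was lost. The homeobox gene Otx2 was higher by 0.65 and 1.31. Of these, 2 of the 7 genes in scramble cells and 3 of the 8 in knockdown cells were called higher and 0 lower, against 1.09% and 0.359% of all genes called higher and 1.00% and 0.272% called lower. Below 0 in scramble cells were the FGF receptor genes Fgfr2 (−0.63) and Fgfr1 (−0.22), and Dnmt3a (−0.35). In knockdown cells only Fgfr2 was below 0 (−0.24). For the genes above 0 the direction is the opposite of the known repression, and the labels were kept as given. Every PRDM14 difference, those of Tet2 included, rests on these labels and would turn its sign if the arrays with and without PRDM14 were exchanged, which was not tested. Dnmt1, the maintenance methyltransferase, differed by −0.17 and 0.05, and Dnmt3a by −0.35 and 0.16. Of the same list of DNA methylation genes, Uhrf1 differed by 0.90 and 0.45, and Dnmt3l by 0.95 and 0.72. On its other probe set Uhrf1 differed by 0.85 and 0.33.

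Genes that work with or after TET enzymes included 3 called higher with PRDM14 in scramble cells. Partners and regulators of TET, base excision genes, and genes of 2-oxoglutarate and cofactor supply came to 39 measured genes, 34 of them above the filter in each comparison. Without PRDM14 0 of the 34 were called higher and 0 lower in the knockdown, against 0.618% and 0.444% of all genes, and 19 were above and 15 below 0. With PRDM14 it called 1 higher, Slc23a1, a vitamin C transporter (1.51, 2.84-fold), against 0.630% of all genes called higher. With PRDM14, 3 of 34 (8.82%) were called higher in scramble cells against 1.09% of all genes, and 0 of 34 in knockdown cells against 0.359%. Tdg, which excises oxidised bases, read 8.89, 8.88, 8.83 and 9.12 on the arrays in the order scramble, scramble with PRDM14, knockdown, both. Ogt, a glycosyltransferase that binds TET2 and TET3, read 7.54, 7.62, 7.33 and 7.23 in the same order.

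The 3 genes called higher with PRDM14 in scramble cells were Gadd45a (1.20), a stress protein linked to demethylation, Apex1 (1.18), the endonuclease that cuts abasic sites, and Wt1 (1.17), a zinc finger factor that recruits TET2. In knockdown cells they differed by 0.03, −0.11 and 0.08. All 3 read lowest on the scramble array, the array furthest from the others. They were also higher in the knockdown without PRDM14, by 0.79, 0.88 and 0.78. Whether their difference with PRDM14 depends on the knockdown was not tested. Wt1 was below the filter on the scramble array, and its difference was 0.47 with signals below the filter raised to it. With arrays centred on Actb and Gapdh control probe sets, the scramble differences of Gadd45a, Apex1 and Wt1 were 0.91, 0.89 and 0.88, through a shift common to all genes. Further genes named as the largest differences of their lists were Lin28a, Gadd45b, Nanog, Idh1 and Idh2. Their PRDM14 differences follow for scramble and then knockdown cells. Lin28a, an RNA-binding pluripotency factor, differed by 0.69 and 0.82, and by 0.71 and 0.17 on its other probe set. Gadd45b, a relative of Gadd45a, differed by 0.68 and −0.50. Nanog, a pluripotency factor that binds TET proteins, differed by 0.52 and −0.39. The 2-oxoglutarate producing enzymes were Idh1 (0.76 and −0.15) and Idh2 (−0.09 and −0.88).

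Other PRDM genes were mostly low. Of 10 measured family members 4 reached the filter. Prdm1, a regulator of germ cell fate, read 6.73 on the scramble array and 5.72 to 5.86 on the other 3, and was called lower with PRDM14 in scramble cells (−1.02). That was 1 of 4, against 1.00% of all genes called lower. Prdm2, a histone methyltransferase, differed by 0.48 and 0.08 with PRDM14. Over its 3 probe sets that reach the filter, these differences ran from −0.04 to 0.48 and from −0.04 to 0.08. Among 7 partners of PRDM14 none was called in any of the 4 comparisons, in which 1.06%, 1.10%, 2.09% and 0.630% of all genes were called in either direction, and Cbfa2t2, its corepressor, read 8.61, 8.47, 8.48 and 8.35 in the order above.

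**Figure D3:**
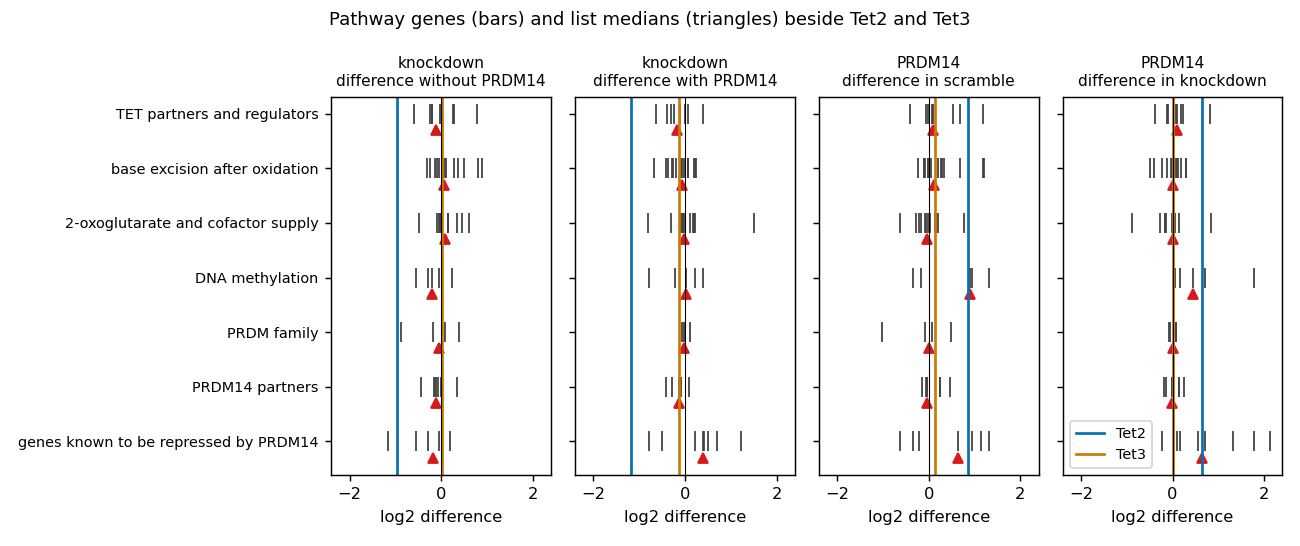
Log2 differences (horizontal axis) of the genes of 7 pathway lists (vertical axis, 1 bar per gene above the filter) and their medians (triangles) in the 4 comparisons, with Tet2 and Tet3 as vertical lines. In the knockdown without PRDM14 Tet2 lies at −0.96, left of all genes of the 3 lists around TET.

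The genes nearest to Tet2 in pattern were searched over the 4 arrays among 10518 genes, by the root mean square distance of log2 signals after subtraction of each gene's mean. They were Pax6, a neural and eye transcription factor (distance 0.12), Manba (0.15) and Cpeb4, which encodes a protein that binds messenger RNA (0.16). Next came Lefty2 (0.19) and Dnmt3l, the cofactor of de novo methyltransferases (0.20). Pax6 read 6.26 on scramble, 7.12 on scramble with PRDM14, 5.36 on knockdown and 5.69 on knockdown with PRDM14. Dnmt3l read 9.76, 10.72, 9.21 and 9.93 in that order. All 5 were lower in the knockdown and higher with PRDM14 in both backgrounds. This likeness over 4 arrays, chosen by value, is a description.

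**Figure D4:**
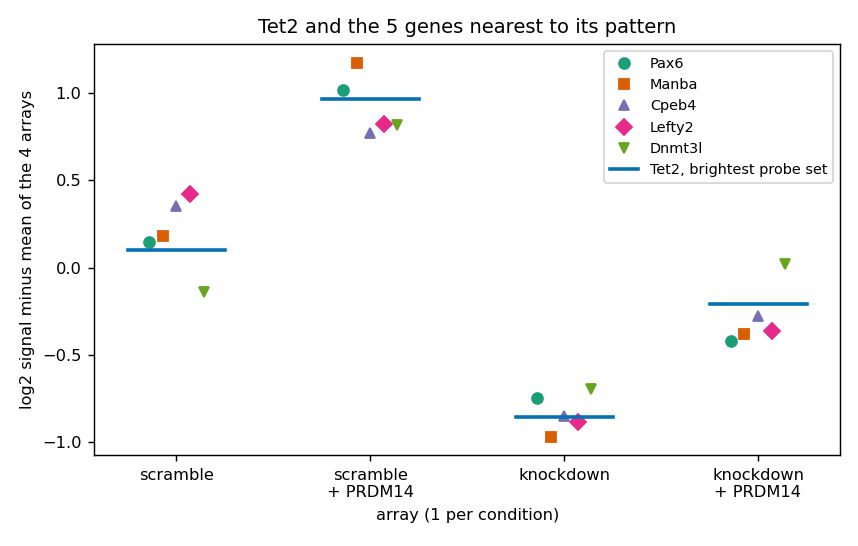
Log2 signal minus the mean of the 4 arrays (vertical axis) for the brightest Tet2 probe set (horizontal strokes) and the 5 genes nearest to it (points) on each array. All are highest on the scramble array with PRDM14 and lowest on the knockdown array.

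The neighbours of Tet2 on its chromosome, in the gene order of the RefSeq table for GRCm38.p6, did not share its pattern. Ppa2, a mitochondrial pyrophosphatase and the nearest measured gene on one side, read 8.64 on scramble, 8.60 on scramble with PRDM14, 8.70 on knockdown and 8.59 with both. Cxxc4, the nearest on the other side, which encodes a CXXC protein that binds TET2, read 4.63 to 4.77, below the filter. The largest difference among the 6 neighbours was that of Cenpe, a mitotic kinesin, at −0.53 in the knockdown without PRDM14, and −0.77 on its other probe set. Among 5 measured neighbours of Tet3, Bola3, an iron-sulphur assembly factor, was higher by 0.48 and 0.84 in the knockdown. Among 5 measured neighbours of Prdm14, Sulf1, a heparan sulphatase, was higher by 0.68 and 0.27 with PRDM14. None of these neighbours reached 2-fold.

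The direction of the Tet2 differences held under each setting tried on the brightest probe set or the mean of both, and the signs for Tet3 did not. The Actb and Gapdh control probe sets had a mean of 12.07 on the scramble array and 12.27 to 12.36 on the others. With each array centred on them, Tet2 was at −1.16 and −1.12 in the knockdown and at 0.57 and 0.61 with PRDM14, and Tet3 was at −0.20 and −0.07 in the knockdown and at −0.15 and −0.02 with PRDM14. The second Tet2 probe set then stood at −0.07 with PRDM14 in scramble cells. This centring moved the median of all genes to −0.20 in the knockdown without PRDM14 and to −0.29 for PRDM14 in scramble cells. Relative to that shift the differences keep their deposited size.

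**Figure D5:**
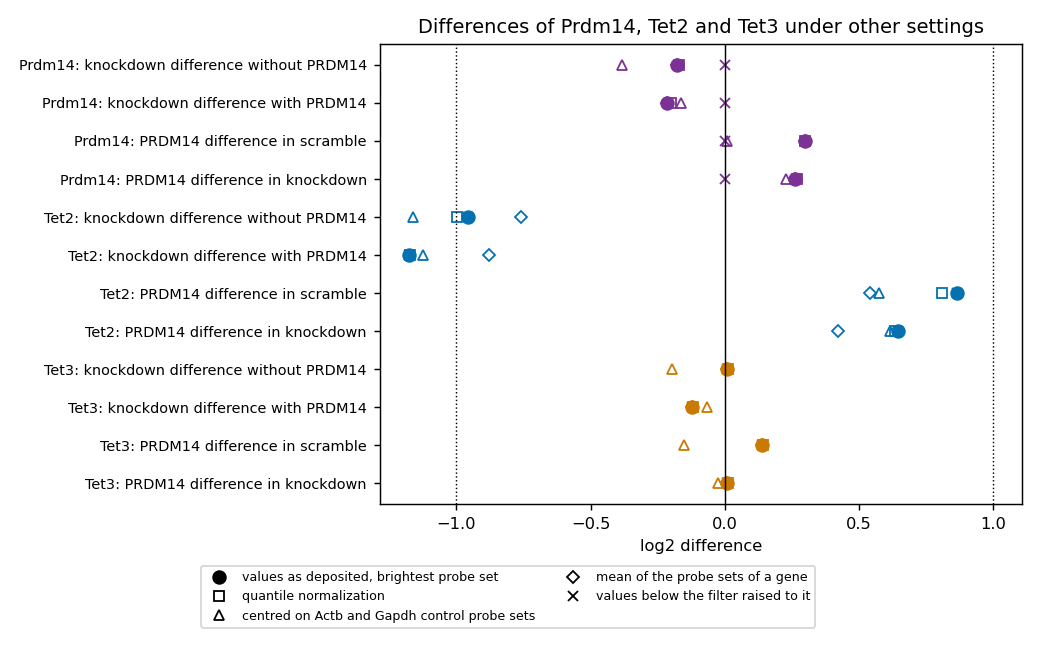
Log2 difference (horizontal axis) of Prdm14, Tet2 and Tet3 in the 4 comparisons (rows) for the deposited values and other settings (symbols), with 2-fold as dotted lines. Tet2 keeps its side of 0 throughout, from −1.18 to −0.76 in the knockdown and from 0.42 to 0.86 with PRDM14, while Prdm14 goes to 0 when signals below the filter are raised to it.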

How the data were processed

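Total RNA of 4 samples was prepared with a 3′ in vitro transcription kit, per the labels' protocols, and groups were taken from the sample titles. The authors deposited probe set signals on a log2 scale from 2.78 to 13.2, with medians of 5.09 to 5.11. The log base was inferred from this range. The submitters' processing notes name Affymetrix Expression Console. Its version and methods of summary and background correction were not given in the sources used here.

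The platform annotation paired 28898 of 45141 probe sets with 1 gene, 551 with more than that and 15588 with none, and 104 were controls. By Entrez identifier 28689 matched RefSeq (GRCm38.p6) and 0 symbols changed. The probe set with the highest mean stood for a gene. Python 3.11.15 and pandas 2.3.3 were used. A call needed 2-fold and a higher array at or above 5.40, which is a size rule. The rule was run on simulated data, in which changes were placed only on genes well above the filter. Changes near the filter were therefore not covered. No coordinates of probe sets are given, since no build is named for the deposited values.

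Named were all members' probe sets, up to 3 genes per list with the largest differences, the 3 nearest genes on each side, and the 5 nearest patterns. Tdg, Ogt, Dnmt1, Dnmt3a and Cbfa2t2 were added for their role, and the genes as low as Tet2 after their values were seen. Members and lists were chosen with earlier results of these data known. Alternatives were 1.5- and 3-fold thresholds, no filter or one at the 75th percentile, other probe set summaries, raised values, quantile normalization and centring on controls.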

Additional observations from a re-analysis of the deposited data

Results flagged for a closer look

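The knockdown difference of Tet3 had opposite signs in the 2 backgrounds, 0.0083 without PRDM14 and −0.12 with PRDM14. Each value rests on 1 array per condition, both are smaller than the spread between probe sets of 1 gene, and the difference between them was not tested.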

How the results depend on the processing

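Over 56 alternative values for the 3 genes, 44 stayed within the spread between probe sets of the reported value. Part of the 44 equal the reported value by construction. These are probe set means of Prdm14 and Tet3 and medians of Tet3, genes with 1 probe set. Raised values of Tet2 and Tet3, above the filter on all arrays, also could not move. The count therefore overstates how stable the values are. The sign turned in 3 of the 56, all of Tet3 and all with centring on the Actb and Gapdh control probe sets. That centring put the PRDM14 difference in scramble cells at −0.15 for Tet3, 0.0098 for Prdm14 and 0.57 for Tet2. It shifts all genes of a comparison by 1 amount. With the mean of both probe sets, which is also their median, Tet2 was at −0.88 in the knockdown with PRDM14, and at 0.54 and 0.42 with PRDM14 in scramble and knockdown cells, since the second probe set differed less. With signals below the filter raised to it, Prdm14 was at 0 in all comparisons by construction, and it gave no median over probe sets that reach the filter. The Tet2 knockdown difference without PRDM14 ran from −1.16 to −0.76, so its side of 2-fold depends on the setting, and that with PRDM14 was under 2-fold with the mean of both probe sets.

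A threshold of 1.5-fold called 527, 448, 849 and 290 genes in the knockdown comparisons without and with PRDM14 and the PRDM14 comparisons in scramble and knockdown cells, and 3-fold called 21, 12, 52 and 13, against 110, 114, 217 and 65 at 2-fold. With the mean of probe sets the last count was 43. No replicate could be left out, since each condition had 1 array. No paired analysis was possible because the labels carry no replicate numbers. Signals near or under the filter, those of Tet3 and Prdm14, limit what these arrays can show.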

Other observations

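Naive pluripotency genes, the cell state in which PRDM14 is known to act, were mostly lower in the knockdown with PRDM14. Of 10 measured genes 9 were below 0 there, with a median of −0.49 against 0.003 over all genes. Klf4 and Tbx3, transcription factors of the naive state, were called lower (−1.21 and −1.04), and Dppa3, a maternal factor that protects methylation, was called higher (1.95), against 0.475% of all genes called lower and 0.630% called higher. Without PRDM14 the median of 9 genes was −0.16. The difference between the backgrounds was not tested. In the PRDM14 comparisons, 7 of the 10 genes were above 0 in scramble cells (median 0.09) and 9 were below 0 in knockdown cells (median −0.34). Dppa3 was called lower with PRDM14 in scramble (−2.51) and knockdown cells (−1.41). Tcl1, a coactivator of AKT kinase, was called lower in knockdown cells (−1.04). Of all genes 1.00% and 0.272% were called lower in scramble and knockdown cells. The medians of 6 housekeeping genes ran from −0.015 to 0.16 over the 4 comparisons.

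Among the 2 neural markers that reached the filter, Pax6 was called lower in the knockdown with PRDM14 (−1.43) and Tubb3, a neuronal tubulin, higher in the knockdown without it (1.06), against 0.475% and 0.618% of all genes called in those directions, while Sox1 and Nes lay below the filter on all arrays.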
